A study of Mus musculus with 6 samples.

Results

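The Wnt pathway genes of mouse cortical bone were taken by gene symbol from an array of 45281 probes. The symbols were those of the Wnt ligands, the Frizzled receptors, the co-receptors *Lrp4*, *Lrp5* and *Lrp6*, the R-spondins and their Lgr receptors, the Dishevelled, Axin and Nkd proteins and the TCF/LEF factors, together with *Ctnnb1*, *Apc*, *Gsk3b*, *Kremen1* and *Porcn*. This gave 91 probes of 48 gene symbols, out of 31508 symbols on the array, and the rule itself used no measured value. The bones were cortical tubes of tibia and femur from C57BL6 mice aged 3 months, cleared of marrow by flushing and of surface cells by repeated digestion with collagenase and trypsin, and kept overnight in medium with serum. The control tubes then received no PTH for 24 hours, and the PTH tubes received the parathyroid hormone fragment 1–34 at 250 nM for 24 hours. Bones of 4 to 5 mice were pooled in an experiment, with about 10 bones in a preparation, and 3 control and 3 PTH preparations were hybridized to 1 array each. The question was how the hormone changes gene expression in osteocytes left in their bone matrix. All mice were of the same genotype, and their sex was not given in the sources used here.

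Wnt proteins are secreted lipid-modified ligands that bind a Frizzled receptor and an LRP co-receptor on the receiving cell. In the canonical branch this recruits Dishevelled and Axin to the membrane, so that β-catenin escapes the destruction complex of Apc, Axin and Gsk3b and acts in the nucleus with TCF/LEF factors. Other Wnts signal through planar polarity or calcium without β-catenin. In bone the canonical branch favours bone formation, loss of *LRP5* lowers bone mass, and osteocytes are the main source of sclerostin, a secreted inhibitor that binds LRP5 and LRP6.

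Each array gave a linear signal intensity for each probe and a detection p-value, which sets the probe against that array's negative controls. A detection p under 0.05 was read as above background, and 34.2% to 38.4% of probes met this on an array. Of the osteocyte markers on the array, *Dmp1*, *Mepe*, *Phex* and *Gp38* were above background on all 6 arrays, *Sost* and *Dkk1* on some of them, and *Fgf23* on none. *Kera*, which stood in the same list but is known as an osteoblast gene, was above background on no array. Markers of neutrophils, macrophages, osteoblasts, osteoclasts and endothelium were also above background, so RNA of other cells was measured with that of osteocytes. In such bulk RNA, fewer cells of a type and less RNA per cell cannot be told apart.

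Of the 48 Wnt pathway genes, 17 exceeded background on each of the 6 arrays, while 13 did so on none. Among 19 Wnt ligands on the array, *Wnt1*, *Wnt4*, *Wnt5a*, *Wnt5b* and *Wnt7b* were above background on all 6 arrays and *Wnt10b* on 5. *Wnt2b*, *Wnt3*, *Wnt6* and *Wnt9b* were above background on 1 array each, and *Wnt2*, *Wnt3a*, *Wnt7a*, *Wnt8a*, *Wnt8b*, *Wnt9a*, *Wnt10a*, *Wnt11* and *Wnt16* on none. Of the 10 Frizzled receptors, taken by current symbol, *Fzd1* and *Fzd7* were above background on every array, and *Fzd9* and *Fzd10* on none. *Rspo2* and *Rspo1*, the latter listed as *Rspondin*, were above background on no array, whereas *Lgr6*, a receptor of R-spondins, was above background on all 6. A probe at background gives a bound and does not show that the transcript was missing.

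**Figure D1:**
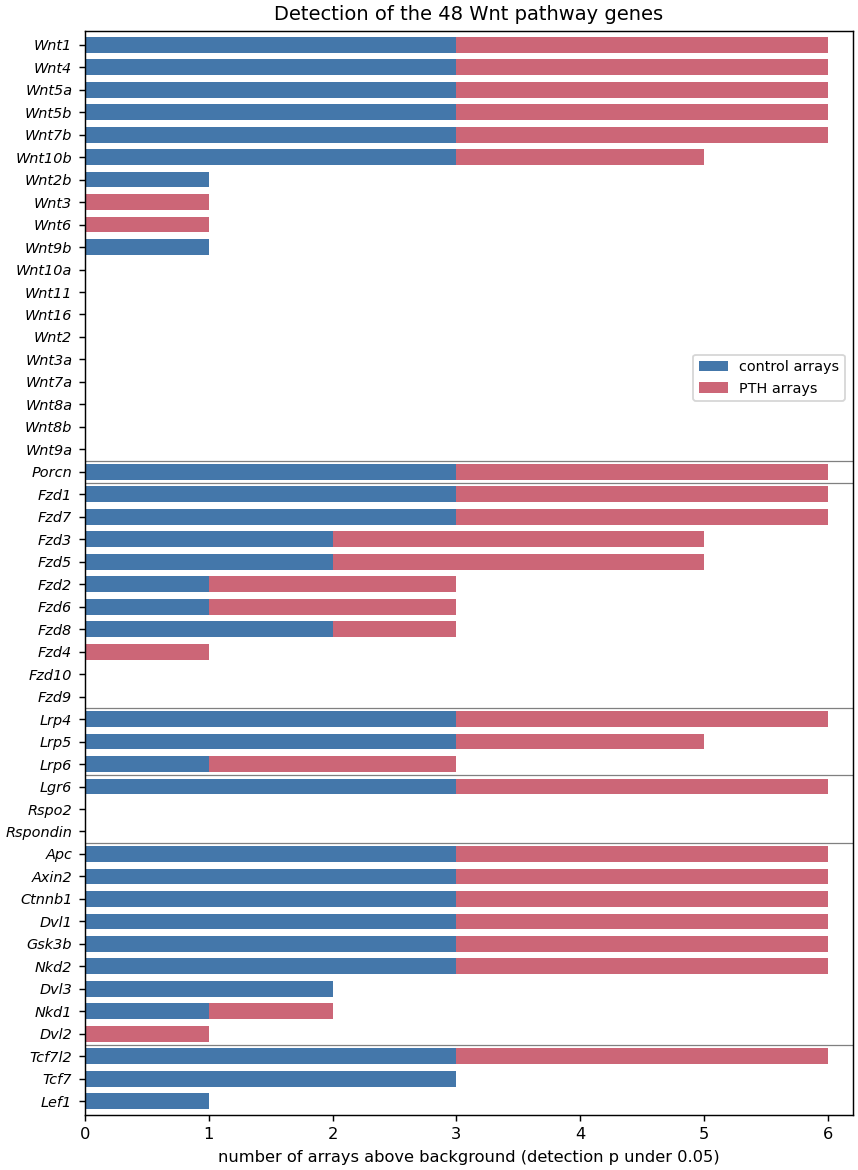
Number of arrays above background for each of the 48 Wnt pathway genes, by the probe of the gene with the most such arrays; blue bars count control arrays and red bars PTH arrays, and grey lines part the groups of genes. Ligands fall into 6 genes on 5 or 6 arrays and 13 on 1 or none. *Tcf7*, drawn by its brighter probe, is the gene with 3 control arrays and no PTH array. Its second probe was above background on 1 control array and 2 PTH arrays.

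Probes above background on 3 or more arrays were tested, and a gene was represented by its brightest tested probe. Signals are given as log2 values after background correction and quantile normalization, and differences are log2 fold changes of PTH minus control. A gene was called at a limma adjusted p under 0.05, taken over all 16214 probes tested, and a change of no less than 1.5-fold. Of the 26 Wnt pathway genes tested, none was called higher with PTH and 2 were called lower, *Wnt1* and *Wnt10b*. That is 7.69% of them, against 1.73% of all 11979 genes tested, where 0.685% were called higher and 1.04% lower. With 2 genes called, the pathway was not tested against other genes. Before adjustment 6 of the 26 genes had a p under 0.05 (limma), against 14.9% of all genes. The arrays of the groups did not overlap for 6 of the 26 genes, or 23.1%, close to the 21.9% found over all genes.

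Most of the pathway moved little. The median log2 fold change of the 26 genes was -0.08, with quartiles of -0.23 and 0.09, beside 0.01 over all genes, with quartiles of -0.16 and 0.17. Scaling the arrays by their medians moved the median of all genes to 0.12 and that of the 26 genes to 0.04, so the sign of the latter depends on the scaling. In 18 of the 26 genes the change was under 1.2-fold in either direction. Of the 24 genes not called, 12 had a 95% interval that lay within a 1.5-fold change either way and 12 had one that reached beyond it, so changes of that size were not excluded for the latter. Nothing in the labels says whether the 3 arrays of a group came from separate cultures, so p-values measure the spread between these arrays, which may be technical.

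**Figure D2:**
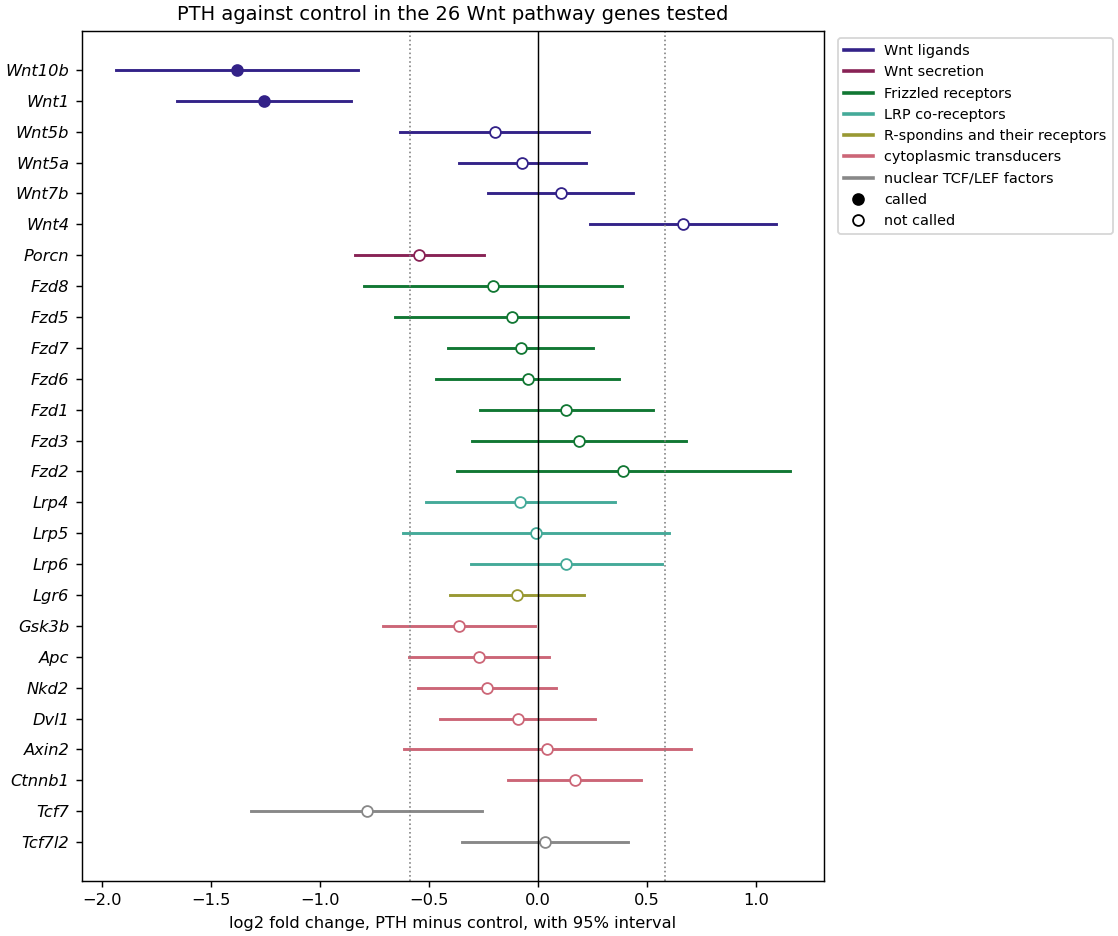
Log2 fold change of PTH minus control for the 26 Wnt pathway genes tested, with 95% intervals from limma (3 arrays per group), ordered by role; filled points were called and dotted lines mark a 1.5-fold change. *Wnt10b* at -1.38 and *Wnt1* at -1.26 lie apart from the rest, which range from -0.78 for *Tcf7* to 0.66 for *Wnt4*.

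*Wnt1* encodes a canonical ligand that is needed for normal bone mass in mice and in people. As deposited, the control arrays read 206, 252 and 209 and the PTH arrays 135, 139 and 193 (linear signal). After normalization the control arrays stood at 7.09, 7.21 and 6.86 and the PTH arrays at 5.72, 5.59 and 6.10 (log2 signal). All 6 arrays were above background, and the highest PTH array was below the lowest control array. *Wnt1* fell from 7.06 ± 0.18 to 5.80 ± 0.26 (SD, n = 3 each), a log2 fold change of -1.26 (SE 0.17, 95% interval -1.65 to -0.86, limma adjusted p = 0.0156), or 2.39-fold lower with PTH. Leaving out 1 array in turn, the change ranged from -1.37 to -1.15 and the limma adjusted p from 0.0231 to 0.0833, and the call was lost without control 1, control 2, PTH 1 or PTH 2. Without background correction the change was -0.59, with a limma adjusted p of 0.000626.

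*Wnt10b*, a canonical ligand that favours osteoblasts over fat cells, fell alongside it. The deposited linear signals of the controls were 183, 202 and 192, and those with PTH 117, 125 and 178. The normalized values were 6.74, 6.62 and 6.65 in controls and 4.89, 5.12 and 5.87 with PTH (log2 signal). The control arrays agreed closely and the PTH arrays spread, with PTH 3 nearest to the controls and PTH 1 not above background. *Wnt10b* fell from 6.67 ± 0.06 to 5.29 ± 0.51 (SD, n = 3 each), a log2 fold change of -1.38 (SE 0.24, 95% interval -1.94 to -0.82, limma adjusted p = 0.0365), or 2.60-fold lower. Over the fits that left out 1 array the change ranged from -1.59 to -1.20 and the limma adjusted p from 0.00709 to 0.137, with the call kept when PTH 3 was left out and lost when any other array was. It changed by -0.55 without background correction, short of the 1.5-fold minimum, and its limma adjusted p was 0.0812 without the detection filter. A second probe of *Wnt10b* was at background and was not tested.

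*Wnt1* and *Wnt10b* are neighbours on mouse chromosome 15, on opposite strands, with start sites 11707 bases apart in the RefSeq annotation of GRCm38.p6. The 250 bases before each start site are shown because these are the pair of ligands that fell together. The window of *Wnt4* is shown because *Wnt4* had the largest upward change among the ligands. All run 5′ to 3′ on the strand of the gene, from RefSeq on GRCm38.p6, and capitals mark the letters of a searched motif, of which 1 was found. The windows are chr15:98789607-98789856 on the plus strand, chr15:98778151-98778400 on the minus strand and chr4:137277385-137277634 on the plus strand.
*Wnt1*: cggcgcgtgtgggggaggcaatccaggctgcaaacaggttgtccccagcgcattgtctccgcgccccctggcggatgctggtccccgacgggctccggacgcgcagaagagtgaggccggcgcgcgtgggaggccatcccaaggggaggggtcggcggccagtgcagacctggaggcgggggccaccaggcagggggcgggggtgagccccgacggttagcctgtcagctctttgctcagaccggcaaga
*Wnt10b*: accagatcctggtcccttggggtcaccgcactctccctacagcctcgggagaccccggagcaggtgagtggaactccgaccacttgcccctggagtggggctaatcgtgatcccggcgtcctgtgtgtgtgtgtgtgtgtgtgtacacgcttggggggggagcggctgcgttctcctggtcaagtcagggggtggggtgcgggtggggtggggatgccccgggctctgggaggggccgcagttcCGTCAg
*Wnt4*: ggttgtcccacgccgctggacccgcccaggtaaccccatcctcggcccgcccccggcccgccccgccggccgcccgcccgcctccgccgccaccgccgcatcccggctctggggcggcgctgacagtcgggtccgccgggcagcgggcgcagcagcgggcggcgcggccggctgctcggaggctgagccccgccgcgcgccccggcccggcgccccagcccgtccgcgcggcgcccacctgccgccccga

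GC content was 71.6% for *Wnt1*, 66.8% for *Wnt10b* and 85.2% for *Wnt4*, beside a median of 52.4% over all 32851 promoter windows of this length. Both strands were searched for the TCF/LEF core CTTTGA, the full cAMP response element TGACGTCA, its shorter form TGACG, which the full element contains, and the TATA core TATAAA. Receptors of PTH raise cAMP, which is why the element was included. The match was 1 TGACG in the window of *Wnt10b*, read as CGTCA from 6 to 2 bases before the start site. Of all windows 13.8% held CTTTGA, 1.55% held TGACGTCA, 17.8% held TGACG and 12.4% held TATAAA, so a single TGACG is common. These are matches of letters and say nothing about binding.

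Genes on either side of the pair were looked at after the values of *Wnt1* and *Wnt10b* were seen. *Fkbp11*, which lies beyond *Arf3* on the *Wnt10b* side, changed by -0.40 (SE 0.12, limma adjusted p = 0.175) and *Arf3* by -0.23 (limma adjusted p = 0.492). *Prkag1*, on the *Wnt1* side, changed by -0.33 (SE 0.13, limma adjusted p = 0.314). None of these was called. The groups did not overlap for any of them, which also held for 21.9% of all genes tested. *Ddn*, next to *Wnt1*, did not pass the detection filter. The other adjacent Wnt genes, *Wnt6* with *Wnt10a*, *Wnt3a* with *Wnt9a* and *Wnt9b* with *Wnt3*, were all above background on too few arrays to be tested.

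*Wnt4*, a ligand that signals with or without β-catenin depending on the cell, had a higher mean with PTH on both of its probes. The brighter probe read 8.83, 8.25 and 8.45 in controls and 9.33, 9.25 and 8.94 with PTH, and the second probe 7.93, 7.55 and 7.54 against 8.57, 8.52 and 8.32 (log2 signal). On each probe the PTH arrays all exceeded the control arrays. The log2 fold change was 0.66 (SE 0.18, limma adjusted p = 0.149) on the brighter probe and 0.80 (SE 0.15, limma adjusted p = 0.0525) on the second, or 1.59-fold and 1.74-fold, and neither was called. With a background offset of 50 in place of 16, both probes passed, at limma adjusted p of 0.0416 and 0.00765. Under median scaling neither passed, at limma adjusted p of 0.22 and 0.1. With 1 array left out in turn the limma adjusted p ranged from 0.139 to 0.351 on the brighter probe and from 0.0786 to 0.183 on the second.

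**Figure D3:**
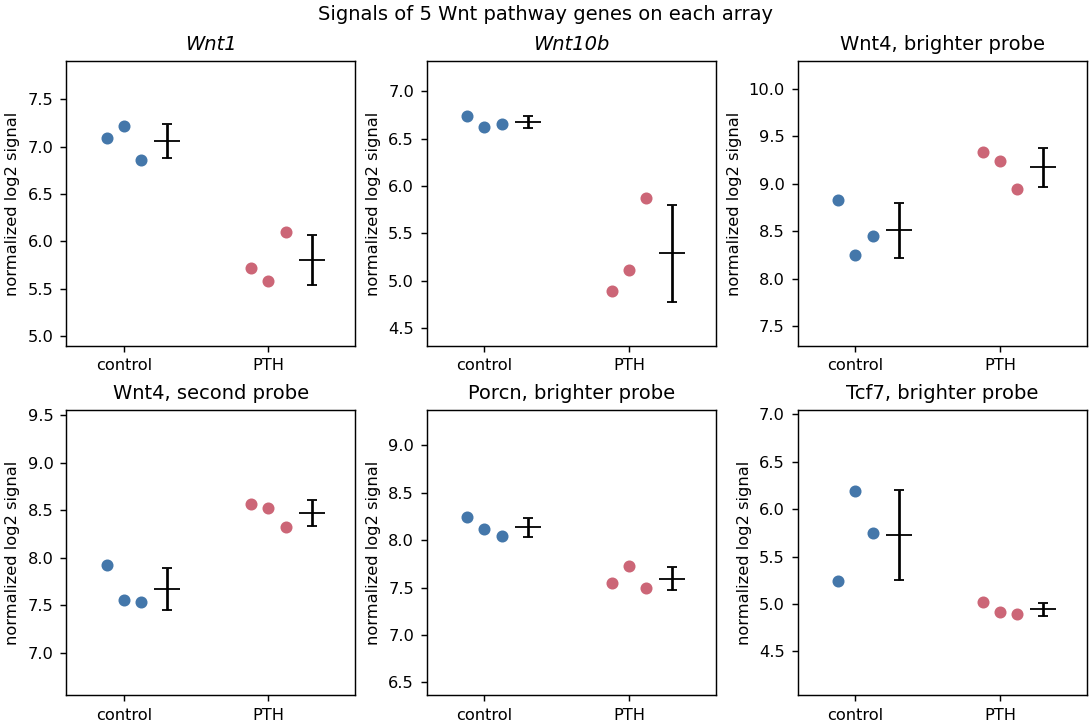
Normalized log2 signal on each of the 3 control (blue) and 3 PTH (red) arrays for *Wnt1*, *Wnt10b*, both probes of *Wnt4* and the brighter probes of *Porcn* and *Tcf7*, with the mean and SD in black; each panel spans 3 log2 units. The groups do not overlap in any panel, and the spread among PTH arrays is widest for *Wnt10b*, with an SD of 0.51.

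The remaining ligands tested differed little between groups. *Wnt5a* and *Wnt5b* are best known for signalling without β-catenin. The brightest probe of *Wnt5a* changed by -0.07, its other probes by 0.03 and -0.23, and *Wnt5b* changed by -0.20. For *Wnt7b*, a canonical ligand able to raise bone formation, the brighter probe changed by 0.10 and the other by -0.30, so its probes disagreed in sign. None of these passed the test. *Porcn*, the acyltransferase that attaches the lipid Wnts need for secretion, read 8.24, 8.12 and 8.04 in controls and 7.55, 7.73 and 7.50 with PTH on its brighter probe (log2 signal). Its log2 fold change was -0.54 (SE 0.13, limma adjusted p = 0.0975), and the groups did not overlap after normalization, while the deposited signals, 336 to 377 in controls and 241 to 352 with PTH, did. The second *Porcn* probe changed by -0.10 (limma adjusted p = 0.833).

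Among 7 Frizzled receptors tested, none was called, and the groups overlapped for each of them. Their log2 fold changes ran from -0.21 for *Fzd8* to 0.39 for *Fzd2*, with 4 below 0, 3 above and a median of -0.05. The receptors above background on all arrays by current symbol, *Fzd1* and *Fzd7*, changed by 0.13 and -0.08, the latter turning to 0.03 under median scaling. A probe of *Fzd5* listed under an older name was also above background on all 6 arrays. It changed by -0.67 without overlap, was not called, and is described under the other observations. Intervals were wide for the dimmer receptors, and that of *Fzd2*, above background on 3 arrays, ran from -0.37 to 1.16.

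The 3 LRP co-receptors lay close to 0. *Lrp4*, which binds sclerostin and presents it to the other co-receptors, read 9.16, 9.46 and 9.76 in controls and 9.59, 9.17 and 9.38 with PTH (log2 signal). Its difference was -0.08 (95% interval -0.51 to 0.35), an interval that lies within a 1.5-fold change in either direction. *Lrp5* read 5.55, 5.59 and 5.42 in controls and 4.94, 6.08 and 5.51 with PTH, so PTH arrays held both its lowest and its highest value. Its difference of -0.01 had a 95% interval of -0.62 to 0.60, which includes changes of 1.5-fold. *Lrp6* read 5.28, 4.86 and 4.90 against 4.81, 5.28 and 5.34, a difference of 0.13 (95% interval -0.31 to 0.57), and was above background on 3 arrays. The probes of *Lgr6* changed by -0.10 and -0.02.

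In the cytoplasm, *Ctnnb1* encodes β-catenin. Its brighter probe read 11.78, 11.55 and 11.62 in controls and 11.92, 11.67 and 11.87 with PTH (log2 signal), a difference of 0.17 with overlapping groups, and its second probe changed by -0.05. The kinase gene *Gsk3b*, whose product marks β-catenin for destruction, was the transducer with the largest change. It read 7.95, 7.80 and 8.19 in controls and 7.52, 7.79 and 7.55 with PTH, without overlap but with PTH 2 close to control 2, and changed by -0.36 (limma unadjusted p = 0.0433, adjusted p = 0.32). *Apc*, the scaffold of the destruction complex, changed by -0.27, the Dishevelled antagonist *Nkd2* by -0.23 and *Dvl1* by -0.09, and none was called. *Dvl2*, *Dvl3* and *Nkd1* were above background on too few arrays to be tested.

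*Axin2*, a scaffold gene that canonical signalling itself induces in many tissues, is often used as a readout of the pathway. It read 5.98, 5.26 and 5.19 in controls and 6.02, 5.11 and 5.43 with PTH (log2 signal), near background but above it on all 6 arrays. Its difference was 0.04 (95% interval -0.62 to 0.70), so neither a rise nor a fall of 1.5-fold was excluded.

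Of the nuclear factors, *Tcf7*, which encodes TCF1 and is abundant in T cells, read 5.24, 6.19 and 5.75 in controls and 5.02, 4.92 and 4.89 with PTH on its brighter probe (log2 signal). All 3 control arrays and no PTH array were above background on this probe, by a narrow margin. The detection p was 0.0374 in control 1 and 0.0673, 0.0972 and 0.0769 in PTH 1, 2 and 3. Taking for each PTH array the lowest signal that counted as above background, the group means of *Tcf7* differed by at least 1.59-fold. That bound leaves out the spread between arrays. The log2 fold change was -0.78 (95% interval -1.31 to -0.26, limma adjusted p = 0.167), so *Tcf7* was not called. Its deposited signals overlapped, at 129 to 177 in controls and 120 to 131 with PTH. The second *Tcf7* probe changed by -0.05 and was above background on 1 control array and 2 PTH arrays. Of the T lymphocyte markers, *Thy1* was above background on 6 arrays, *Cd5* and *Lck* on 5 each and *Cd2* and *Cd3e* on 1 each. *Cd3d*, *Cd3g*, *Cd4*, *Cd8a* and *Zap70* were above background on no array. The 3 tested, *Thy1*, *Cd5* and *Lck*, changed by -0.32, -0.22 and 0.29, and none was called. Their summed signal was 162 to 237 in controls and 147 to 177 with PTH. *Tcf7l2* changed by 0.03. The 4 probes of *Lef1*, another TCF/LEF factor, lay between 4.36 and 5.01 (log2 signal), and 1 of them was above background on 1 control array.

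Outside the receptors, ligands and transducers, 111 further genes of the pathway were on the array in 6 lists, and 77 were tested. *Sfrp4* was called higher and *Tnfrsf11b* lower, and the median log2 fold change was -0.06. *Sfrp4*, a secreted antagonist that binds Wnts, read 9.19 ± 0.25 in controls and 10.50 ± 0.32 with PTH (SD, n = 3 each), a rise of 1.31 (SE 0.20, limma adjusted p = 0.0232). That call was kept when PTH 1 was left out and lost when any other array was, with a limma adjusted p of up to 0.0988. *Tnfrsf11b* encodes osteoprotegerin, the decoy that restrains osteoclast formation and a reported target of β-catenin in osteoblasts. It changed by -1.60 (limma adjusted p = 0.00194) and was called with any 1 array left out. Osteoprotegerin has regulators other than Wnt, PTH among them.

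Of 8 secreted antagonists tested, 1 was called higher and none lower. *Sost*, the gene of sclerostin, changed by -1.21 (limma adjusted p = 0.15) and *Dkk1*, which blocks LRP5 and LRP6, by -0.60 (limma adjusted p = 0.429), and neither passed. *Sost* was above background on 3 control arrays and 1 PTH array, with a PTH mean of 4.74 near background, which limits its measured change. Under median scaling *Sost* was called, with a change of -1.11 and a limma adjusted p of 0.0166. Of 23 textbook target genes tested, 4 of them already described (*Axin2*, *Nkd2*, *Porcn* and *Tcf7*), none was called higher and 1 lower, with a median of -0.10. None was called among 10 further surface and secretion genes, 13 cytoplasmic genes, 17 nuclear genes and 13 genes of the polarity and calcium branch.

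**Figure D4:**
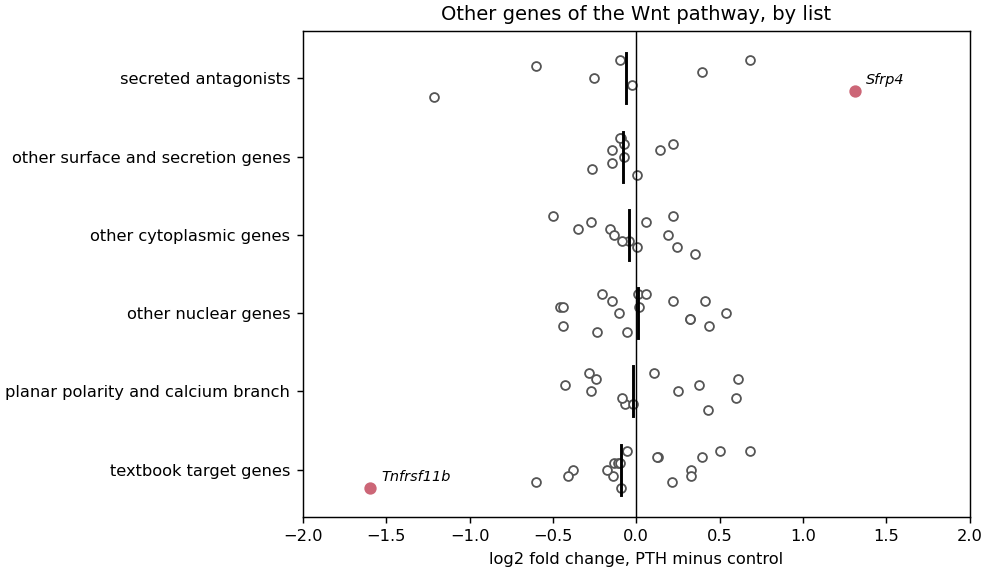
Log2 fold change of PTH minus control for other tested genes of the Wnt pathway in 6 lists, with called genes filled and named, and the median of each list as a black bar; vertical offsets within a list only part the points. *Sfrp4* at 1.31 and *Tnfrsf11b* at -1.60 stand at the ends, the list medians lie between -0.09 and 0.01, and 3 antagonists are plotted again among the target genes.

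Markers of several cell types moved with the treatment. Of 11 neutrophil and myeloid markers tested, 7 were called lower, and their summed signal was 57897 to 58744 in controls and 37169 to 42093 with PTH. Of 10 red cell markers on the array 2 were tested and both were called lower, with a summed signal of 8521 to 9978 in controls and 2329 to 2606 with PTH. Of 5 osteoclast markers tested 3 were called higher, with 11881 to 13358 in controls and 16117 to 20631 with PTH, while *Calcr* and *Atp6v0d2* were above background on no array. Of 8 osteoblast markers tested 2 were called lower, with 63528 to 69115 in controls and 53717 to 57020 with PTH. Of 6 osteocyte markers tested 1 was called lower, with 7441 to 8853 in controls and 6025 to 7193 with PTH. These did not all move alike: *Gp38* changed by 0.70 (limma adjusted p = 0.056) without overlap. The other 5 had changes below 0, from -1.21 to -0.60. Of 4 cartilage markers tested 1, *Agc1*, was called lower, with a summed signal of 345 to 369 in controls and 222 to 264 with PTH. None of 7 macrophage markers was called, but their summed signal was 6194 to 6347 in controls and 5021 to 5356 with PTH, without overlap. None of 8 cell cycle markers was called either, with a summed signal of 3700 to 3888 in controls and 4029 to 4507 with PTH, again without overlap. None was called among the 8 endothelial, 4 B lymphocyte, 3 T lymphocyte, 3 skeletal muscle and 2 fat markers tested. The summed signal of the skeletal muscle markers was 140 to 146 in controls and 109 to 120 with PTH, and those of the other 4 lists overlapped. The part of these cells in the lower *Wnt1* and *Wnt10b* signals was not tested.

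**Figure D5:**
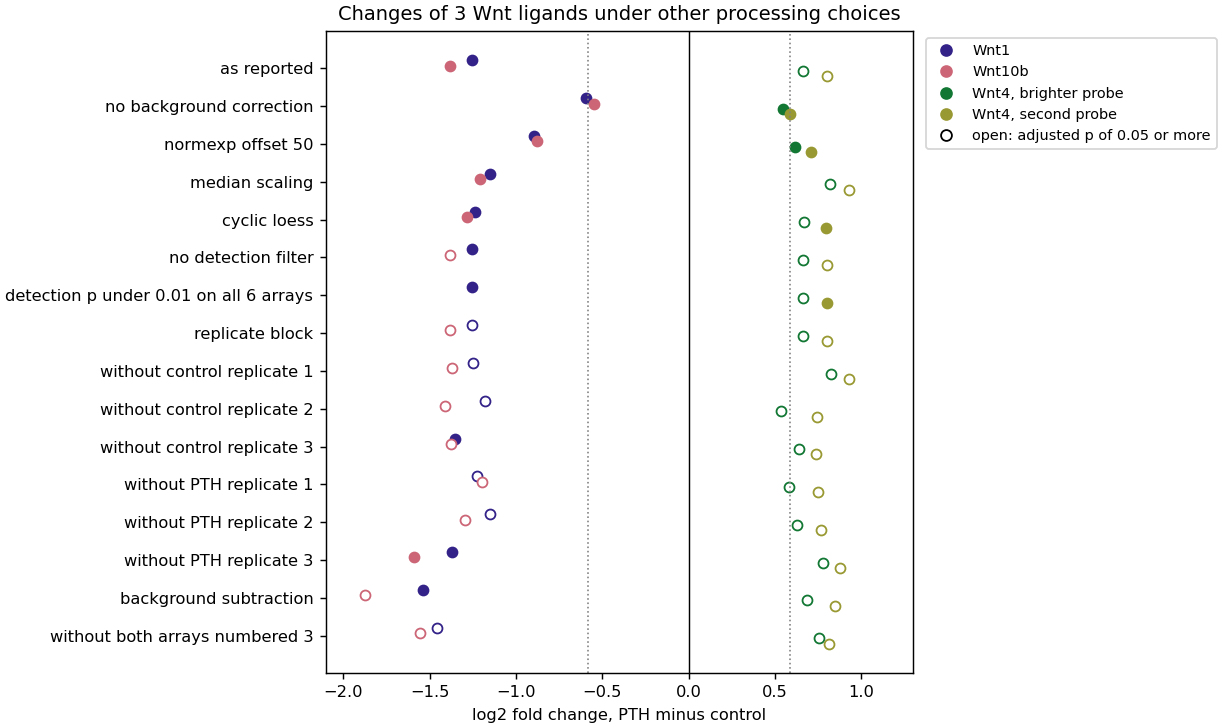
Log2 fold change of PTH minus control for *Wnt1*, *Wnt10b* and both probes of *Wnt4* as reported and under other processing choices; filled points have a limma adjusted p under 0.05 and dotted lines mark a 1.5-fold change. *Wnt1* stays between -1.54 and -0.59 and *Wnt10b* between -1.88 and -0.55, both probes of *Wnt4* stay above 0, and *Wnt10b* has no point where it could not be tested.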

How the data were processed

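RNA from 6 preparations of cortical bone tubes, 3 control and 3 PTH by the sample labels, was measured on an Illumina mouse bead array. The authors deposited a linear signal intensity per probe on every array, not normalized, and a detection p-value beside each from GenomeStudio, version not given. Their own normalized values and scores were not used.

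Here signals were background corrected by normexp through the detection p-values, offset by 16, quantile normalized and taken to log2 (neqc, limma 3.58.1, R 4.3.3). Probes with a detection p under 0.05 on at least 3 of 6 arrays were tested by lmFit and eBayes, and p-values of all 16214 were adjusted by the method of Benjamini and Hochberg. A gene was read from its brightest tested probe. The number of arrays limits the precision: an exact permutation test of 3 against 3 cannot give a two-sided p below 0.1. The procedure was tested on simulated data with noise drawn independently for each array. That simulation held no deviation shared by arrays of the same number, so it does not cover that feature of these data. The members, the gene lists and the tests were chosen with earlier results of these data known. Any tested member could be named. Values on every array were given for members called, members changed by 1.5-fold or more, *Lrp4*, *Lrp5*, *Lrp6*, *Ctnnb1*, *Axin2*, *Lef1* and *Tcf7*, and those of *Porcn* and *Gsk3b* were added after their values were seen. Other pathway genes were named when called, plus *Sost* and *Dkk1*. Promoter windows came from RefSeq (GRCm38.p6). Probe sequences were not used, so cross-hybridization with related transcripts was not assessed. The slide of an array is not named in the labels or columns, so a slide block could not be run. Alternatives were other background corrections and scalings, other detection filters, thresholds and probe rules, the methods' t-test, a replicate block and each array left out. The methods' t-test is named after the t-test that the paper's general statistics give for 2 groups. For the arrays the paper used a differential expression score of GenomeStudio, which was not computed here.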

Additional observations from a re-analysis of the deposited data

How the results depend on the processing

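*Wnt1* and *Wnt10b* were lower with PTH and *Wnt4* higher under every alternative that tested them, but the calls depended on the choice. Against 2 Wnt pathway genes called, 1 was called without background correction, without the detection filter, with a detection p under 0.01 on all 6 arrays and with background subtraction. None was called by limma's test against a 1.5-fold change or by the methods' t-test after Benjamini-Hochberg adjustment, and 4 were called at an unadjusted p under 0.05 by limma and by the methods' t-test. With 1 array left out at a time, 0 to 2 were called, and the median of the 26 genes ranged from -0.11 to -0.05. Without both arrays numbered 3, an alternative chosen like background subtraction after seeing the data, 0 were called, with a limma adjusted p of 0.0656 for both *Wnt1* and *Wnt10b*. Of 2 other pathway genes called, 6 were called at an unadjusted p in limma and 5 in the methods' t-test, 1 after Benjamini-Hochberg adjustment of that test, 1 against a 1.5-fold change, 0 without both arrays numbered 3, and 1 to 2 with 1 array left out. The 207 genes called over the whole array became 104 under median scaling, 622 and 506 at an unadjusted p in limma and the methods' t-test, 68 after adjustment of that test, 17 against a 1.5-fold change, 9 without both arrays numbered 3 and 48 to 78 with 1 array left out. Median scaling shifted the median of all genes to 0.12 and that of the Wnt pathway genes to 0.04, and 60.6% of called genes were then higher with PTH, against 39.6%. The causes of these changes were not tested. Fits with arrays left out differ both in the number of arrays and in which arrays remain.

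By the correlations between arrays, replicate numbers paired the arrays only in part. Correlations of deviations from the group means were 0.067, 0.0636 and 0.273 for arrays of the same number, in the order 1, 2 and 3. Control 1 correlated best with PTH 2, at 0.073, and control 2 best with PTH 1, at 0.0701. Pairs of an array numbered 3 with one of another number ran from -0.142 to -0.134. Deviations within a group sum to 0, so these negative values follow in part from the 0.273 and are not separate evidence. By these correlations the arrays numbered 3 deviated alike, while numbers 1 and 2 were not told apart. The count of probes above background did follow the number. It was 15758 in control 1 and 15504 in PTH 1, 16451 and 16352 for number 2, and 17369 and 17374 for number 3. The median deposited signal did not, at 117, 129 and 111 in controls 1 to 3 and 112, 114 and 124 with PTH. Whether arrays of a number were processed together was not tested. With the replicate number as a block 44 genes were called, none of them a Wnt pathway gene, with limma adjusted p of 0.0793 for *Wnt1* and 0.086 for *Wnt10b*. Dim probes have few units above background, which limits what could be seen for *Axin2*, *Lrp5* and *Fzd2*.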

Other observations

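The array lists some Wnt pathway genes under older names that the choice by symbol did not take. RefSeq synonyms gave 12 such names with 15 probes, of which 7 were tested and none called. *Axin1*, listed as *Axin*, changed by -0.08 and *Kremen1*, listed as *Kremen*, by -0.22. *Rspo3*, listed as *Thsd2*, was the R-spondin that could be tested, with a change of 0.17 and a 95% interval of -0.61 to 0.94. *Lgr4*, *Lgr5* and *Rspo4* were above background on no array.

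For a pair of these genes the older name gave another picture than the probes described above. *Fzd5*, listed as AI427138, read 9.72, 9.35 and 9.20 in controls and 8.92, 8.77 and 8.59 with PTH (log2 signal), without overlap. That is a change of -0.67 (SE 0.17, limma adjusted p = 0.122). The tested probe under its current symbol changed by -0.12 and lay near background, with a control mean of 5.47. *Ctnnb1*, listed as *Catnb*, read 5.09, 5.48 and 5.12 in controls and 6.14, 5.67 and 5.62 with PTH, a change of 0.58 (SE 0.19, limma adjusted p = 0.206), while its brighter probe changed by 0.17. Neither passed the test, and why the probes differ was not tested.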
